A study of Mus musculus with 12 samples.

Results

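The genes described here encode the proteins of the cytosolic ribosome, and their messenger RNA was measured in 12 mouse tumours under 4 treatments. They were chosen as protein-coding rows with a symbol of the form Rpl or Rps followed by a digit, together with Rpsa, Rplp0, Rplp1 and Rplp2, leaving out pseudogenes and the Rps6k kinases, and with a summed count of at least 1200 over the 12 tumours. The rule gave 80 genes, 47 of the large and 33 of the small subunit, out of 54446 genes counted, and all 80 were among the 16833 genes with enough counts for testing. Of the 85 symbols of that form, 5 stayed under the count minimum. These were Rpl39l with 823 counts, Rpl3l with 130, Rpl36al with 122, Rpl24 with 111 and Rpl10l with 6. Rpl24 and Rpl36al had 19125 and 1216 counts on near-identical pseudogene copies, so few counts on their own rows need not mean low expression. The members just above the minimum were Rps10 with 1264 counts and Rpl13a with 6166. Rps19bp1, which fits the pattern of the symbols but encodes a binding partner of a ribosomal protein, was left out.

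Sq-1979, a mouse squamous carcinoma line of the head and neck, was given with Matrigel to male C3H/HeN mice that were 6 weeks old, and grew as subcutaneous tumours on the back. The 4 groups of 3 tumours were a vehicle control, anti-PD1, which is a rat antibody to an inhibitory receptor of T cells, SN-38, which is the active metabolite of the topoisomerase I inhibitor irinotecan, and the antibody and SN-38 together, called the combination. The labels state no dose, no treatment time and no time of collection. They do not say that each tumour of a group came from its own mouse, so the p-values rest on a spread between samples that may in part be technical. Every tumour is a mixture of transplanted cancer cells of 1 line and host cells, and in such bulk RNA fewer cells of a type and less RNA per cell cannot be told apart.

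Each ribosome holds a small subunit, which reads the messenger RNA, and a large subunit, which joins amino acids. Most of its proteins are present in a single copy per ribosome, the stalk proteins Rplp1 and Rplp2 in more, and their mRNAs are among the most abundant of growing cells. Many of these mRNAs begin with a C followed by a run of pyrimidines, the 5′ terminal oligopyrimidine (TOP) start, through which mTORC1 and the RNA-binding protein Larp1 control their translation and stability. Total counts were 21088288 to 28512141 per tumour. All 13 squamous markers examined were counted in every tumour, with a summed level of 8886 to 19005 CPM (counts scaled to library size with TMM factors), and so were 10 of 10 fibroblast, 10 of 10 T-cell and 9 of 9 macrophage markers.

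The pyrimidine run that the family is known for was more frequent at the annotated starts of these genes than at those of all genes. Most of the members' annotated starts had none within 5 bases. Where transcription began in these tumours was not measured. Rpl4, Rps12 and Rps25, counted as without a run, have one farther from the annotated start. A start without a run therefore need not mean an mRNA without one. RefSeq promoters on GRCm38.p6, running from 250 bases before to 50 after an annotated start, matched 60 of the 80 members with 71 starts. A C followed by at least 4 pyrimidines stood exactly at 14 of these 71 starts, or 19.7%, against 2.51% of 32851 starts of all genes. Within 5 bases on either side of the start it was found at 45.1% of members' starts and 18.3% of all. The sequences below run from 30 bases before the start to 20 after it and show, with the pyrimidine run in capitals, Rps6, whose level followed the other members most closely, Rps27 and its retrogene copy Rps27rt, and Rpl22l1 and Rps26, where the run begins a few bases downstream. Rpl7l1 and Rpl41 have no such run within 5 bases. Members without a run there were found among those that followed the others closely, such as Rpl23 and Rpl10a (Pearson correlations of 0.95 and 0.94 with the mean of the other 79 members over the 12 tumours), while Rps10, which followed them least, has a run exactly at its start. The Rps10 row held only 1264 counts, and near-identical copies held 94.7% of its own and copy counts together, so its level is uncertain.
Rps6, chr4:86857348-86857397, minus strand: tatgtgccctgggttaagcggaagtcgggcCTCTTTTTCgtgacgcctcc
Rpl28, chr7:4792935-4792984, plus strand: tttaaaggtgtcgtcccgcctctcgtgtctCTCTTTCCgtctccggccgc
Rps18, chr17:33955646-33955695, minus strand: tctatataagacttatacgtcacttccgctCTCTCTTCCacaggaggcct
Rps10, chr17:27635225-27635274, minus strand: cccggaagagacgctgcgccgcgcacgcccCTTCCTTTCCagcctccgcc
Rps27, chr3:90213629-90213678, minus strand: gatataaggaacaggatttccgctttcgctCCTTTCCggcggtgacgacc
Rps27rt, chr9:114982720-114982769, minus strand: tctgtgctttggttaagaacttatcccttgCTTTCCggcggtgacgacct
Rpl22l1, chr3:28805478-28805527, plus strand: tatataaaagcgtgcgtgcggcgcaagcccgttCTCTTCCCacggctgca
Rps26, chr10:128626487-128626536, minus strand: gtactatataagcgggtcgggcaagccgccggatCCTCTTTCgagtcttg
Rpl7l1, chr17:46782637-46782686, minus strand: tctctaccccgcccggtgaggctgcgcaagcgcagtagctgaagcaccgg
Rpl41, chr10:128549149-128549198, minus strand: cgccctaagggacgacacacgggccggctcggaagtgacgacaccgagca
The letters of other motifs were also counted over the whole promoter on both strands. CCGGAAG, as in the Rps10 sequence, was present at 36.6% of members' starts against 8.86% of all, AAGATGG in 16.9% against 6.34%, and the E-box CACGTG, the sequence that Myc and Mnt bind with Max, in 11.3% against 7.15%. A match is a sequence only, and binding was not measured.

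Ribosomal protein genes took 6.05% to 8.54% of all counts in a tumour, and the 4 groups had nearly the same mean. The share was 7.14%, 7.30% and 7.54% in the vehicle tumours and 8.11%, 7.76% and 6.84% in the anti-PD1 tumours. It was 8.38%, 6.05% and 7.96% in the SN-38 tumours and 6.81%, 8.54% and 6.80% in the combination tumours. Group means were 7.33% ± 0.20 (SD, n = 3) for vehicle, 7.57% ± 0.65 for anti-PD1, 7.46% ± 1.24 for SN-38 and 7.39% ± 1.0 for the combination. All groups overlapped and the vehicle tumours lay within the range of each treated group. Only 1.62% of the variance of the share lay between groups. The large subunit took more of the counts than the small one in every tumour, with a ratio of 1.5 ± 0.02 in vehicle, 1.46 ± 0.03 for anti-PD1, 1.44 ± 0.02 for SN-38 and 1.45 ± 0.04 for the combination, and 48.3% of the variance of this ratio lay between groups. For 4 groups of 3 without any difference, 27.3% of the variance is the average to be found between groups.

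**Figure D1:**
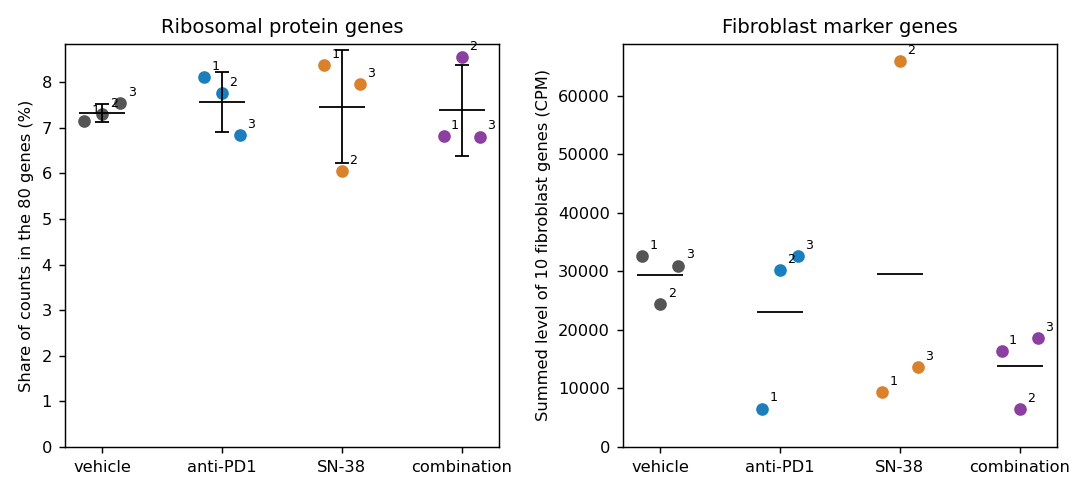
Share of all counts that fell in the 80 ribosomal protein genes (left, %; horizontal lines are group means and bars SD) and summed CPM of 10 fibroblast marker genes (right; horizontal lines are group means), each point 1 tumour labelled with its number in its group. Shares overlap between all groups, SN-38 tumour 2 has the lowest share and the highest fibroblast level, and combination tumour 2 the highest share and the lowest fibroblast level.

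Tumours of the same group stood at opposite ends. In SN-38 tumour 2, 1 of the 80 genes was above its own mean over the 12 tumours, and 65 of them had their lowest value there. In the other SN-38 tumours, 73 and 69 genes were above their mean. In combination tumour 2, 74 genes were above their mean, against 3 and 4 in combination tumours 1 and 3. Of the anti-PD1 tumours, 70 and 75 genes were above the mean in tumours 1 and 2 and 4 in tumour 3, while vehicle tumours 1 to 3 had 16, 42 and 51. The highest value of a gene was most often in SN-38 tumour 1 (24 genes), combination tumour 2 (24 genes) or SN-38 tumour 3 (20 genes). The summed level of fibroblast markers also differed between the ends of this order. It was 65869 CPM in SN-38 tumour 2, and 6513, 6539, 9310 and 13610 CPM in combination tumour 2, anti-PD1 tumour 1, SN-38 tumour 1 and SN-38 tumour 3, the 4 tumours with the highest ribosomal protein shares. The remaining 7 tumours had 16393 to 32648 CPM and did not follow the order: combination tumours 1 and 3, with shares near the low end, had 16393 and 18618 CPM, and anti-PD1 tumour 2, with the fifth highest share, had 30210 CPM. Combination tumour 2 also had the lowest summed levels of squamous markers, 8886 CPM against 12654 to 19005 elsewhere, and of skeletal muscle markers, 23.8 CPM against 65.6 to 407. The 10 most abundant other genes took 10.3% of counts in SN-38 tumour 2 and 4.48% to 7.21% elsewhere, and with those genes taken out of the total the ribosomal protein share was still lowest in SN-38 tumour 2, at 6.75%, and highest in combination tumour 2, at 8.97%. Summed T-cell markers were 278 CPM in combination tumour 3 and 234 CPM in anti-PD1 tumour 3, against 77.4 to 136 CPM elsewhere. Macrophage markers were 1254 and 1144 CPM in these tumours, against 425 to 785 CPM elsewhere. Both tumours had shares near the low end, but SN-38 tumour 2 and combination tumour 1 there had T-cell sums of 110 and 101 CPM. Neutrophil sums were lowest in SN-38 tumour 2 (64.5 CPM) and highest in SN-38 tumour 1 (309 CPM). They were 156 and 155 CPM in combination tumours 1 and 2, which lay toward opposite ends of the shares. Endothelial sums were highest in combination tumour 2 (152 CPM), followed by combination tumours 1 and 3 (both 139 CPM). The part of stromal and immune content in the shares was not tested.

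**Figure D2:**
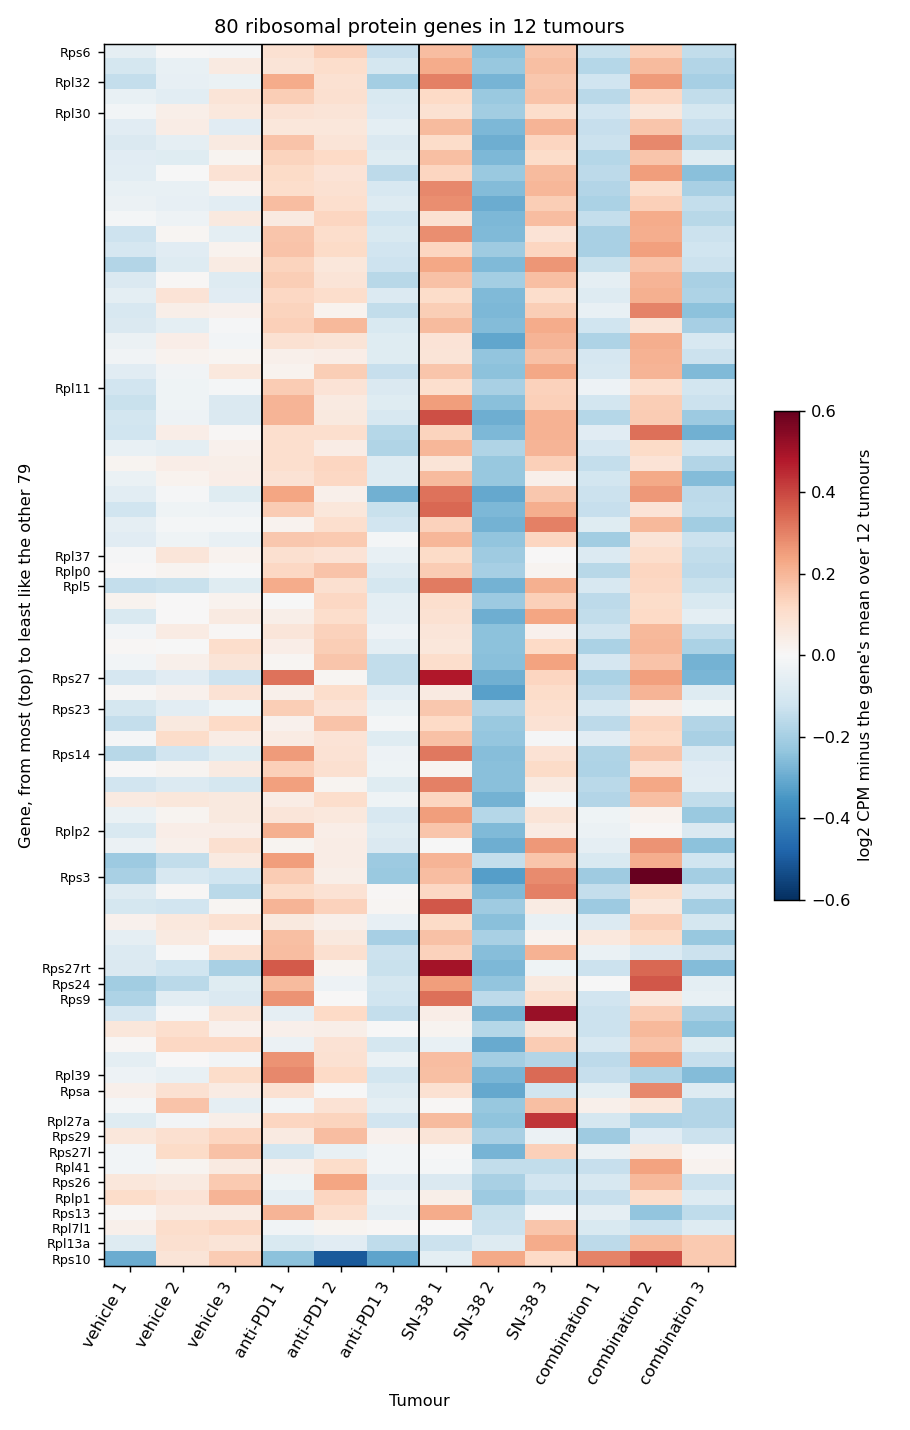
Log2 CPM of each of the 80 genes minus its mean over the 12 tumours (colour, limited to ±0.6), with tumours in columns by group and genes in rows from the gene that followed the others most closely to the least, with some of the genes of the text named. Most rows share a column pattern, blue in SN-38 tumour 2 and red in SN-38 tumours 1 and 3 and combination tumour 2, while Rps10 at the bottom does not share it.

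Most members kept this order of tumours. Over the 12 tumours the correlation between log2 CPM of 2 members had a median of 0.77 (Pearson; Spearman 0.76) over 3160 gene combinations, against 0.04 for 2267 other genes with a mean over 100 CPM. It was 0.73 without SN-38 tumour 2 and combination tumour 2, and 0.84 after group means were taken out. These are descriptions across genes that share libraries, scaling and tissue makeup. Against the mean of the other 79 members, 59 genes correlated above 0.8, among them Rps6 (0.98), the subunit protein that S6 kinase phosphorylates, and Rpl32 (0.96). The 9 genes below 0.6 were Rps10 (-0.18), Rpl13a (0.28), Rpl7l1 (0.38), Rps13 and Rplp1 (both 0.45), Rps26 (0.48), Rpl41 and Rps27l (both 0.49) and Rps29 (0.55). Without the same 2 tumours the value of Rps13 was 0.83. That of Rpl13a was then 0.062, of Rpl41 0.098, of Rps27l 0.11, of Rplp1 0.14 and of Rps26 0.17, while Rps10 (-0.27), Rpl7l1 (0.49) and Rps29 (0.55) moved less. For Rps10 and Rpl13a, near-identical copies held 94.7% and 59.2% of own and copy counts together.

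Members varied little from tumour to tumour. Their coefficient of variation over 12 tumours had a median of 10.2%, against 10.9% for the other genes over 100 CPM and 16.7% over all genes tested. It was smallest for Rpl7l1 (6.82%), Rpl30 (7.02%), Rpl37 (7.15%), Rps23 (7.50%) and Rpl14 (7.50%). It was largest for Rps3 (23.1%), Rps27rt (19.4%), Rps10 (18.7%) and Rps27 (17.9%). A median of 12.3% of a member's variance lay between groups, against 30.3% over all genes tested and the average of 27.3% without any difference. The members with the largest part between groups were Rps10 (74.5%), Rps29 (64.3%), Rpl7l1 (50.3%) and Rplp1 (49.4%). That of Rps10 rests on a row of 1264 counts, with 94.7% of own and copy counts on near-identical copies.

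The mRNA level per length differed widely between members. In CPM per kilobase of exon, over all 12 tumours, the stalk proteins Rplp1 (4369 ± 391, SD, n = 12) and Rplp0 (2473 ± 218), which recruit translation factors to the large subunit, were highest, followed by Rps15 (1766 ± 205), Rpl4 (1585 ± 152) and Rps4x (1572 ± 179). The lowest were Rps10 (1.77 ± 0.33), Rpl13a (9.44 ± 0.94), Rpl7l1 (29.8 ± 2.0), Rpl29 (49.9 ± 4.1) and Rpl26 (72.3 ± 7.7), and the median member stood at 386 CPM per kilobase. With the longest coding transcript as the length, the median was 831 CPM per kilobase, and 3 of the 5 highest and 4 of the 5 lowest genes were shared.

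Of the 5 genes with the lowest levels, 4 had most of their family's counts on near-identical copies. Ribosomal protein genes have many processed pseudogenes, and 1064 pseudogene rows matched a transcript of the rule's genes at 90% identity or more over at least 80% of the shorter sequence. For the 80 members, such copies held 8.37% of own and copy counts together, more than 10% in 29 genes and more than 50% in 5. Rps10 had 1264 counts of its own against 22384 on its copies (94.7%), Rpl26 32134 against 177207 (84.7%, nearly all on Gm15772), Rpl13a 6166 against 8959 (59.2%), Rps3a1 156856 against 205524 (56.7%) and Rpl29 17287 against 19037 (52.4%). How the reads of these genes were divided cannot be known from the counts, so their levels are uncertain. Exons of Rps10 and Rpl13a also overlap other genes on the same strand, over 20.6% and 35.4% of their length, and those genes had 0 counts. For Rpl13a these were a longer gene, a microRNA and a small nucleolar RNA.

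Paralogs with a tissue-restricted or alternative role stood beside their main forms as follows, per length. Rpl22l1 reached 107 ± 12.5 CPM per kilobase against 112 ± 10.6 for Rpl22, whose protein represses its paralog in other settings. With the longest coding transcript as the length, Rpl22l1 was at 386 and Rpl22 at 159 CPM per kilobase, so their order depended on the length used. Rps27l, a p53-induced form, reached 108 ± 8.8 against 784 ± 140.4 for Rps27, and Rps27rt 194 ± 37.6. Rpl7l1 reached 29.8 ± 2.0 against 727 ± 81.9 for Rpl7. The muscle form Rpl3l and the testis form Rpl10l stayed under the count minimum, while Rpl3 was at 386 ± 40.9 CPM per kilobase.

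The first comparison asks what the antibody alone changes. Against vehicle, 0 of the 80 genes passed the threshold, an adjusted p of 0.05 by edgeR's quasi-likelihood test with Benjamini-Hochberg adjustment over 16833 genes, and 0.0% of all genes passed. No member had an unadjusted p below 0.05 either, where 5.6% of all genes did, and the smallest adjusted p of a member was 0.844. The mean was higher with anti-PD1 in 61 of 80 genes, by a median of 0.05 on the log2 scale against 0.01 over all genes, and this count was 49 and 44 without anti-PD1 tumour 1 or 2. Of the members, 79 differed by less than 0.25 in either direction, with a median SE of 0.14. Groups did not overlap in 5 members (4 higher) against 17.2% of all genes.

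The smallest p-values among higher genes belonged to Rps14, Rps21 and Rpl5. Rps14, a protein of the platform of the small subunit, stood at 803, 834 and 858 CPM with vehicle and at 1078, 958 and 884 CPM with anti-PD1. All 3 treated tumours were above all 3 vehicle tumours, yet the difference of 0.23 ± 0.15 (SE) did not pass (edgeR adjusted p = 0.844). Rps21 differed by 0.19 ± 0.14 and Rpl5 by 0.19 ± 0.15. Rpl5 and Rpl11 bind Mdm2, the ubiquitin ligase of p53, when ribosome assembly fails, and Rpl11 differed by 0.10 ± 0.11. On the lower side were Rps10 (-0.34 ± 0.18), Rps27l (-0.15 ± 0.10) and Rpl13a (-0.14 ± 0.12). With copy counts added, the differences of Rps10 and Rpl13a were 0.09 and 0.08.

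**Figure D3:**
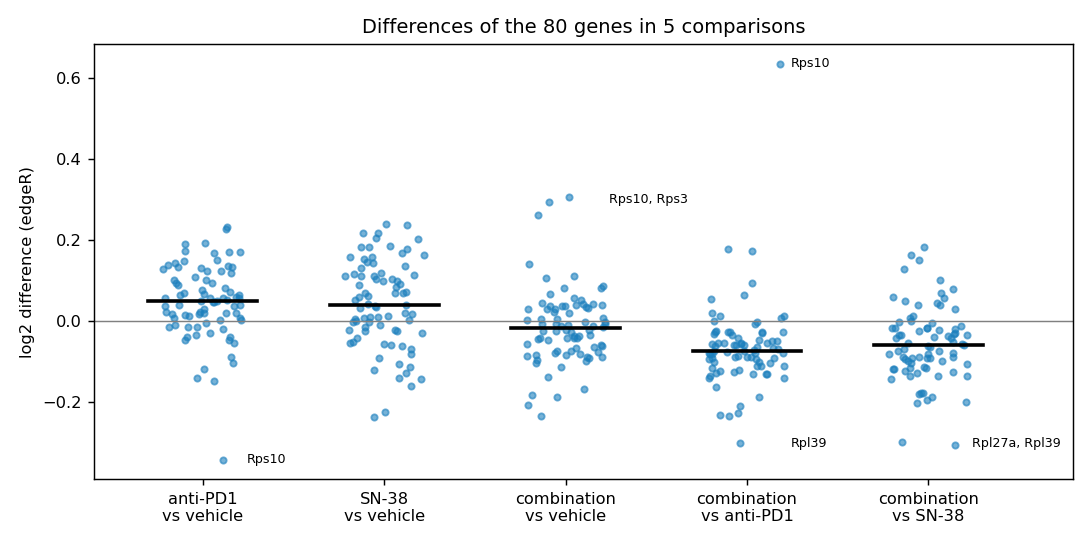
Log2 difference between group means (vertical axis, edgeR) of each of the 80 genes in 5 comparisons; each point is 1 gene, bars are medians, and genes beyond 0.28 in either direction are named. The points centre near 0, with medians between -0.07 and 0.05, and 0 of 80 genes passed the test in each comparison.

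The second comparison asks the same of SN-38 alone. Here too 0 members passed, while 0.00594% of all genes did, which is Mnt alone. With a replicate block, without the count filter, with the fit limited to these 2 groups, or with any 1 vehicle or SN-38 tumour left out, 0 genes passed. No member had an unadjusted p below 0.05, against 10% of all genes, and the smallest adjusted p was 0.520. The mean was higher with SN-38 in 53 of 80 genes, with a median difference of 0.04, but the count was 33 without SN-38 tumour 1 and 36 without SN-38 tumour 3. All 80 genes differed by less than 0.25. Groups did not overlap for 2 members, Rplp1 and Rps26, both lower with SN-38, where 19.1% of all genes did not overlap.

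Rplp1, whose protein forms the flexible stalk with Rplp2 and Rplp0, stood at 2342, 2299 and 2504 CPM with vehicle and at 2227, 1868 and 1968 CPM with SN-38. Every SN-38 tumour was below every vehicle tumour, and the difference was -0.24 ± 0.11 (edgeR adjusted p = 0.520). Of the other stalk genes, Rplp0 differed by -0.01 ± 0.13 and Rplp2 by -0.003 ± 0.12. Rps26, a protein at the mRNA exit channel, stood at 581, 576 and 617 CPM with vehicle and 522, 484 and 511 CPM with SN-38, again without overlap (-0.22 ± 0.11). Rps29 differed by -0.14 ± 0.09. On the higher side Rps9 differed by 0.22 ± 0.14, Rpl5 by 0.22 ± 0.15 and Rps14 by 0.19 ± 0.15.

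The combination was compared with vehicle and with each agent alone, and these comparisons share their control tumours with those above. Against vehicle 0 members passed, as did 0.0% of all genes, and 2 members had an unadjusted p below 0.05 against 12.9% of all genes. The mean was higher in 31 and lower in 49 of the 80 genes, with a median of -0.02. This split rested on single tumours: 4 genes were higher without combination tumour 2, and 48 and 51 without combination tumours 1 and 3. Groups did not overlap in 7 members, 2 higher and 5 lower, where 23.6% of all genes did not overlap.

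Rps29, a zinc-binding protein of the head of the small subunit, had the smallest p of the members. It stood at 561, 571 and 586 CPM in vehicle tumours, 556, 608 and 545 CPM in anti-PD1 tumours, 566, 468 and 523 CPM in SN-38 tumours and 462, 510.4 and 489 CPM in combination tumours. All combination tumours were below all vehicle and all anti-PD1 tumours and overlapped the SN-38 tumours. Against vehicle the difference was -0.23 ± 0.09 (edgeR adjusted p = 0.359), and against anti-PD1 -0.23 ± 0.09 (edgeR adjusted p = 0.595). Averaged over both antibody states, the SN-38 difference of Rps29 was -0.18 ± 0.07 (edgeR adjusted p = 0.388).

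Rpl7l1, a paralog of Rpl7 that acts in the early assembly of the large subunit, was the least variable member and the other with an unadjusted p below 0.05. It stood at 106, 112 and 113 CPM in vehicle tumours, 102, 105 and 104 CPM in anti-PD1 tumours, 104, 95.1 and 117 CPM in SN-38 tumours and 97.7, 95.3 and 98.5 CPM in combination tumours. The combination tumours lay below the vehicle and the anti-PD1 tumours and within the range of the SN-38 tumours. The difference from vehicle was -0.19 ± 0.08 (edgeR adjusted p = 0.372). Rpl7 itself differed by -0.02 ± 0.15. Rps13 differed from vehicle by -0.18 ± 0.11 and Rps24, a protein needed for rRNA processing, by 0.26 ± 0.15.

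**Figure D4:**
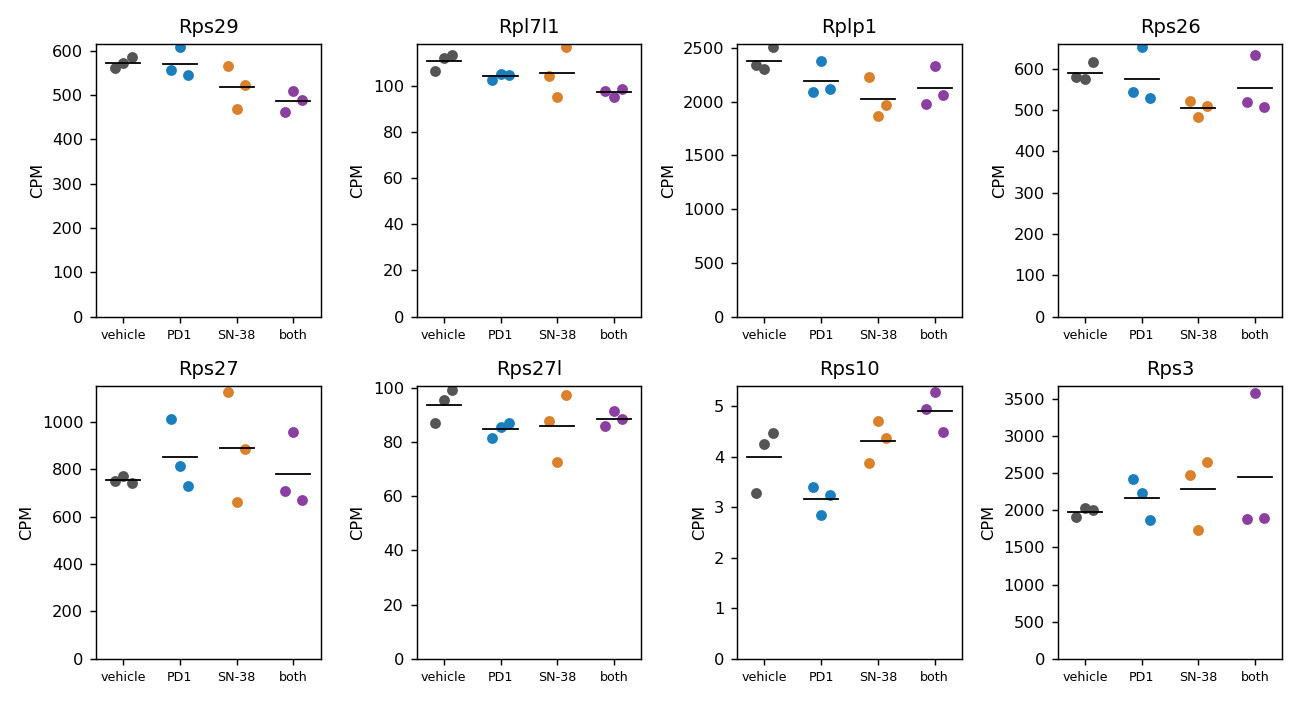
CPM of 8 members in each tumour (points) with group means (lines), for vehicle, anti-PD1 (PD1), SN-38 and the combination (both); every vertical axis starts at 0 and each panel has its own scale. Rps29 and Rpl7l1 are lower in the combination than in vehicle without overlap, Rps27 varies within the treated groups, and Rps3 is set apart in combination tumour 2.

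Against anti-PD1 alone, 0 members passed, as did 0.0% of all genes, with 2 members, Rps10 and Rps29, and 7.96% of all genes at an unadjusted p below 0.05. The combination had the higher mean in 11 of 80 genes, by a median of -0.07 over all members. With a tumour left out, the count was 23, 21 and 6 for anti-PD1 tumours 1, 2 and 3 and 23, 3 and 34 for combination tumours 1, 2 and 3. Groups did not overlap in 4 members, Rpl39, Rpl7l1 and Rps29 lower and Rps10 higher, against 12.2% of all genes. Rpl39, a small protein of the peptide exit tunnel, stood at 789, 704 and 599 CPM with anti-PD1 and 588, 569.6 and 541 CPM with the combination (-0.30 ± 0.15, edgeR adjusted p = 0.658). Rps10 stood at 3.40, 2.84 and 3.24 CPM with anti-PD1, 4.95, 5.27 and 4.49 CPM with the combination, 3.27, 4.24 and 4.48 CPM with vehicle, and 3.87, 4.72 and 4.38 CPM with SN-38. The combination tumours were above all anti-PD1 and vehicle tumours and overlapped the SN-38 tumours, and the difference from anti-PD1 was 0.64 ± 0.18 (edgeR adjusted p = 0.465). It rests on the few reads kept by a gene whose copies held 94.7% of the counts.

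Against SN-38 alone, 0 members passed, as did 0.0% of all genes, and 0 members and 7.92% of all genes had an unadjusted p below 0.05. The combination had the higher mean in 17 of 80 genes, and with a tumour left out in 42, 6 and 38 for SN-38 tumours 1, 2 and 3 and in 32, 5 and 35 for combination tumours 1, 2 and 3. Groups overlapped in every member, where 9.62% of all genes did not overlap. Rpl27a (-0.31 ± 0.15), Rpl39 (-0.30 ± 0.15) and Rps13 (-0.18 ± 0.11) had the smallest p-values among lower genes. The interaction, which is the antibody difference with SN-38 minus that without, passed in 0 members and 0.0% of all genes, and 0 members against 7.63% of all genes had an unadjusted p below 0.05. It was below 0 in 66 of 80 genes with a median of -0.11 and a median SE of 0.20. It was above 0 in 17.5% of members and 48.2% of all genes. This split uses the same tumours as the splits above, which changed when single tumours were left out. The interaction was furthest below 0 for Rpl39 (-0.39 ± 0.22), Rps21 (-0.39 ± 0.20) and Rpl27a (-0.38 ± 0.21). The interaction furthest from 0 in either direction was that of Rps10, at 0.52 ± 0.25 (edgeR adjusted p = 0.655), which was -0.063 with copy counts added. Averaged over the other agent, 0 members and 0.0% of all genes passed for SN-38, where 2 members, Rps10 and Rps29, and 10.5% of all genes had an unadjusted p below 0.05, and the median of the members was -0.01. For the antibody, 0 members and 0.0% of all genes passed, 0 members against 6.67% of all genes had an unadjusted p below 0.05, and the median was -0.01.

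Some members departed from the rest in a single tumour, and their chromosomal neighbours within 2 Mb moved the same way in some cases only. In combination tumour 2, Rpl39 and Rpl27a were low among the members and their neighbours lay at medians of -0.29 and -0.37 on the log2 scale, relative to each gene's median over the 12 tumours. The neighbours of Rpl7l1, also low there, of Rpl13a, high in combination tumour 3, and of Rpl41, low in SN-38 tumour 3, lay between -0.04 and -0.00062. Rps3, which encodes a protein of the mRNA entry channel (GRCm38 chromosome 7, 99477896 to 99483738, minus strand), stood at 1903, 2035 and 2005 CPM in vehicle tumours, 2417, 2231 and 1865 CPM in anti-PD1 tumours, 2470.1, 1733 and 2645 CPM in SN-38 tumours and 1879, 3579 and 1890.2 CPM in combination tumours. Combination tumour 2 was far above every other tumour. In it, Rps3 lay 0.82 above its median over the 12 tumours on the log2 scale, against 0.18 for the median member. The Rps3 difference between the combination and vehicle, 0.31 ± 0.25, was -0.07 without that tumour, and against anti-PD1 it was 0.17 ± 0.25 and -0.20 without it.

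The 30 neighbours within 2 Mb on both sides of Rps3 had a median of -0.11 in combination tumour 2, opposite in sign to Rps3, and the sides differed. Genes counted here are tested genes with a mean above 4 in log2(CPM + 0.5). The 12 such genes from Pak1 to Gdpd5, just before Rps3 on chromosome 7, lay at a median of 0.44 above their own median, with 9 of 12 higher. On the other side, the 268 genes from Arrb1 to the chromosome end lay at -0.30, with 229 lower. The members within that stretch, Rpl27a, Rps13, Rps15a and Rplp2, had a median of -0.10 where the median member stood at 0.18. The 342 genes before Pak1 were at -0.03, and the 9 members among them, Rps19 and Rps9 included, at 0.17. In the other 11 tumours the median of the 268 genes lay between -0.04 and 0.05. The boundaries of these stretches were chosen after their values were seen, and DNA copy number was not measured.

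**Figure D5:**
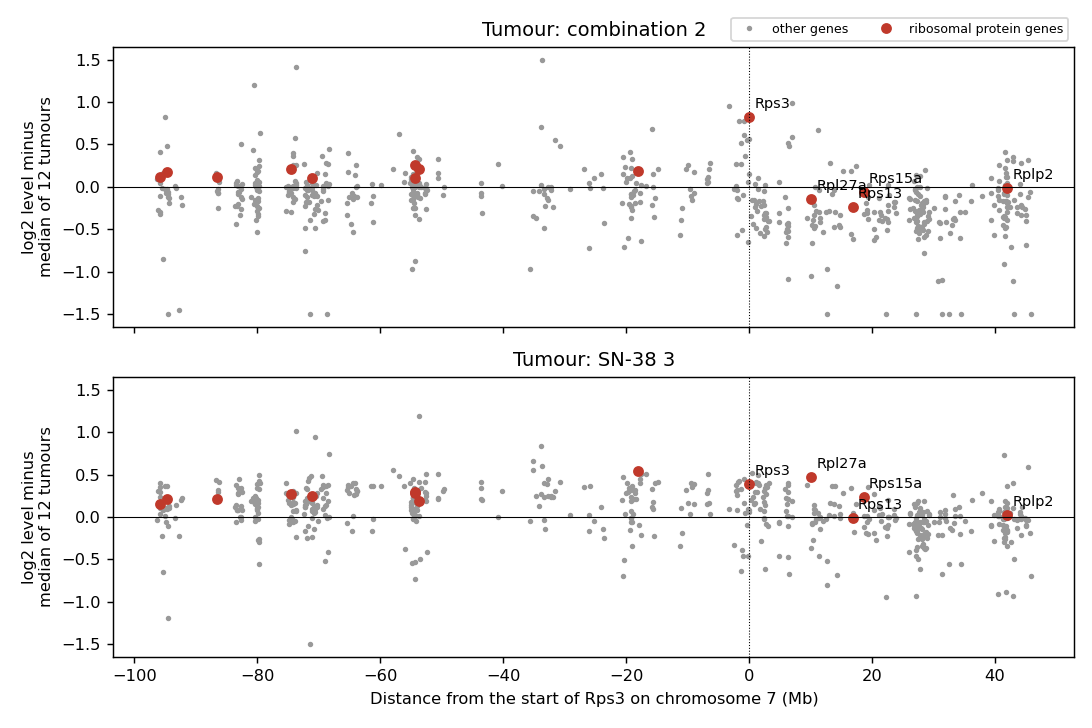
Log2 level of each gene shown minus its median over the 12 tumours (vertical axis, other genes limited to ±1.5). The horizontal axis is the distance on chromosome 7 from the start of Rps3 in megabases, in combination tumour 2 (top) and SN-38 tumour 3 (bottom). Red points are the ribosomal protein genes, and the other points are tested genes with a mean log2(CPM + 0.5) above 4. In combination tumour 2 Rps3 is at 0.82 and most genes to its right are below 0; in SN-38 tumour 3 most genes to its left are above 0.

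SN-38 tumour 3 had its own pattern. The 342 genes of chromosome 7 before Pak1 lay at a median of 0.19, with 273 higher. The last part of chromosome 9, from 100 Mb on, had 118 of 143 genes lower with a median of -0.15, and its members Rpl14, Rpl29, Rps27rt and Rpsa had a median of -0.02 where the median member stood at 0.15. Rpl27a was highest in this tumour, at 1127 CPM, while its 17 neighbours within 2 Mb lay at a median of -0.02. In combination tumour 2 the genes of chromosome 12, which carries Rps29 and Rps7, had a median of -0.22, with 256 of 312 lower. Rps29 was lower in combination tumours 1 and 3 than in tumour 2. Over all genes of this scale that are not members, the median was 0.03 in SN-38 tumour 3 and -0.01 in combination tumour 2. The stretch of chromosome 9 and chromosome 12 were picked by hand and not by a scan of all chromosomes.

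Rps27 and its retrogene copy Rps27rt moved together although they lie on chromosomes 3 and 9. Rps27 stood at 752, 770.4 and 741 CPM with vehicle, 1010 and 1126 CPM in anti-PD1 tumour 1 and SN-38 tumour 1, 957 CPM in combination tumour 2 and 660 to 883 CPM in the remaining treated tumours. Rps27rt stood at 67.3, 65.8 and 62.4 CPM with vehicle, at 92.4 and 101 CPM in those same 2 tumours and at 90.8 CPM in combination tumour 2. In the remaining treated tumours it was 59.3 to 72.3 CPM. Their neighbours did not share the shift, with medians between -0.04 and 0.01 within 2 Mb. Reads could not be assigned between such near-identical copies with certainty, and the differences of Rps27 and Rps27rt from vehicle were 0.17 ± 0.20 and 0.23 ± 0.21 with anti-PD1 and 0.24 ± 0.20 and 0.24 ± 0.21 with SN-38. The vehicle tumours were close to each other for both genes.

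Other genes of translation and ribosome production were set beside the members, each list described by its counts. Among 41 ribosome biogenesis genes, 0 passed in any comparison, and means were lower than vehicle in 40 with anti-PD1, 34 with SN-38 and 34 with the combination, with medians of -0.18, -0.10 and -0.09 against 0.01 over all genes. Leaving out each tumour in turn gave 38 to 40, 27 to 39 and 32 to 36 lower. Gnl3, or nucleostemin, stood at 74.2 ± 3.4 CPM with vehicle and 58.02 ± 1.0 CPM with anti-PD1 (-0.35 ± 0.08, edgeR adjusted p = 0.844), and Nop10, a part of the pseudouridylation particle, differed by -0.34 ± 0.08 with the combination (edgeR adjusted p = 0.292). The ribosomal protein genes themselves were higher on average with anti-PD1 in 61 of 80 cases, as given above; a difference between the lists was not tested.

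Mitochondrial ribosomal proteins, which build the separate ribosome of that organelle, were lower than vehicle in 65, 68 and 57 of 77 genes with anti-PD1, SN-38 and the combination, with medians of -0.06, -0.11 and -0.08 and 0 past the threshold. Leaving out each tumour in turn gave 57 to 65, 56 to 74 and 46 to 69 lower. Initiation factors were lower in 24, 22 and 25 of 27, again with 0 past the threshold. With a tumour left out, 22 to 25, 19 to 24 and 21 to 25 of them were lower. Over all genes tested, 51.6%, 51.2% and 51.6% were higher than vehicle in the same order. The 18 other TOP mRNAs were higher in 9, 12 and 9, and Eef1a1, the elongation factor that delivers aminoacyl-tRNA, stood at 10658 ± 184 CPM with vehicle and differed by 0.06 ± 0.14 with anti-PD1, 0.06 ± 0.14 with SN-38 and 0.02 ± 0.14 with the combination. Of the genes that control this family, Mtor differed by 0.25 ± 0.10, 0.30 ± 0.10 and 0.18 ± 0.10, Larp1 by 0.03 ± 0.10, -0.03 ± 0.10 and 0.08 ± 0.10, and Eif4ebp1, a translation repressor that mTORC1 inactivates, by -0.29 ± 0.13, -0.37 ± 0.13 and 0.03 ± 0.13 in the same order, with 0 of 18 past the threshold. Myc differed by -0.14 ± 0.12, -0.41 ± 0.13 and 0.06 ± 0.12. Mnt, its antagonist, rose with SN-38 by 0.63 ± 0.07 (edgeR adjusted p = 0.0339) and was the 1 gene of these lists that passed. This call was lost with a replicate block and with each vehicle or SN-38 tumour left out, where edgeR called 0 genes.

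Among the genes that answer ribosomal stress through p53, 0 of 12 passed. Mdm2 differed by 0.03 ± 0.15, 0.20 ± 0.15 and 0.35 ± 0.15 with anti-PD1, SN-38 and the combination, and Cdkn1a by -0.28 ± 0.25, -0.25 ± 0.25 and 0.06 ± 0.25. Of the proteins that accompany the ribosome, Rack1 differed by 0.08 ± 0.17, 0.07 ± 0.17 and -0.03 ± 0.17 and Fau, a ubiquitin-like fusion with a small subunit protein, by 0.16 ± 0.17, 0.16 ± 0.17 and 0.01 ± 0.17. Npm1, a histone and ribosome chaperone, differed by 0.02 ± 0.17, 0.03 ± 0.17 and 0.10 ± 0.17.

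For members, the data limit the size of a difference that could pass. The median SE of 0.14 is that of the difference of a single gene, and differences of 0.05 such as the median with anti-PD1 were smaller than it. The median level of the members varied between tumours of a group with a pooled SD of 0.15 on the log2 scale. Tested genes that are not members were split into quartiles by exon length. The quartile with the shortest exons, whose range of length took in 50 of the 80 members, had medians of -0.01, -0.07 and -0.04 against vehicle with anti-PD1, SN-38 and the combination. The medians of the 80 members were 0.05, 0.04 and -0.02 in the same order.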

How the data were processed

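RNA-seq was made from 12 tumours with a stranded, poly(A)-selecting library kit, per the labels' protocols. Per the submitters' processing notes, cutadapt 2.4 and STAR 2.7.2a were used with the build GRCm38. How reads were counted, with which strand setting and which gene models, is not given in the sources used here. As deposited, the values were whole-number counts of 54446 genes, without normalization. Identifiers were matched without version to GENCODE M21 (54409 matched, 37 did not), which gave symbols, exon lengths and positions. Genes were filtered with filterByExpr (16833 kept) and tested in edgeR 4.0.16 (R 4.3.3) by the quasi-likelihood test with TMM factors, a mean per group and all 12 tumours, in 8 contrasts, with Benjamini-Hochberg adjustment and a threshold of 0.05. The fit was also run on simulated counts with planted changes. That check covered the size and direction of the differences and set no criterion for false calls. The SE of a difference is its absolute value divided by the square root of the test's F statistic. Level per length is CPM per kilobase of merged exons. Copies were found with blastn. Position values are log2(CPM + 0.5) minus the gene's median over 12 tumours. They were taken for tested genes with a mean above 4 on that scale and for all members. Chi-square statistics between tumours of a group were 11.8 to 18.5 per degree of freedom for vehicle. For the treated groups they were 38.6 to 169, highest between SN-38 tumours 1 and 2. All 12 tumours were kept in the main fit, with 1 shared estimate of the spread.

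The members and the gene lists were chosen with earlier results of these data known. Named genes were, per comparison, members with the smallest p in each direction, members with the highest and lowest level or variation, and paralogs and regulators listed by name. Alternatives were RLE factors, scaling without the members, no count filter, DESeq2 1.42.0, limma voom (limma 3.58.1), only the groups compared, a replicate block, each tumour left out and, added after the data were seen, copy counts summed with members. A few genes of these lists are not reported here.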

Additional observations from a re-analysis of the deposited data

How the results depend on the processing

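In all 8 comparisons 0 members passed under every alternative run, DESeq2 (which called 14 to 201 genes elsewhere in the table) and limma voom included. Medians of the members moved by less than the spread between tumours; leaving out a tumour gave 0.02 to 0.12 for anti-PD1 against vehicle, -0.03 to 0.15 for SN-38 against vehicle and -0.13 to 0.04 for the combination against vehicle, so the last 2 changed sign. The numbers of genes with a higher mean moved by over 1.5 times in 35 of 135 cases. With a tumour left out, the Rps3 difference ran from -0.0725 to 0.46 for the combination against vehicle, from -0.20 to 0.33 for the combination against anti-PD1 and from -0.000265 to 0.27 for the averaged SN-38 effect, lowest each time without combination replicate 2. With copy counts added to members, Rps10 and Rpl13a were at 0.086 and 0.080 for anti-PD1 against vehicle and the Rps10 interaction was -0.063 in place of 0.52. The Mnt call for SN-38 against vehicle was lost with a replicate block, without the count filter, with the fit limited to those groups and with each vehicle or SN-38 tumour left out. The vehicle share was 7.87% without the 10 largest other genes and 7.99% with pseudogene rows, and the anti-PD1 share 8.26% with them. The median level per length was 831 CPM per kilobase with the longest coding transcript. Replicate numbers did not pair tumours: correlations of deviations between same-numbered tumours ran from -0.50 to 0.69, and 4 of 12 tumours were closest to their own number. With a replicate block the medians against vehicle were 0.05, 0.04 and -0.02 and 0 members passed.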
